A study of Rattus norvegicus with 2 samples.

Results

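Circular RNAs (circRNAs) of Eif4g3 and Eif4e3, the host genes of a scaffold and of a cap-binding subunit of the translation initiation complex eIF4F, were described in rat spinal cord. The members were all circRNAs whose gene field, split at commas, held Eif4g3 or Eif4e3, which gave 18 of the 11599 circRNAs listed, 14 of Eif4g3 and 4 of Eif4e3. Both genes were chosen by their summed reads and by single circRNAs that differed between the libraries, so the values of BCP against sham below are a description and are not tested. Tissue came from rats with bone cancer pain (BCP), in which live Walker 256 cells, a rat mammary carcinoma line grown beforehand as ascites in SD rats, were injected into the tibial marrow, and from sham rats, which received Walker 256 cells boiled for 20 minutes with the same surgery. All animals were killed 21 days after surgery, 3 per group, and no genotype is named for either group. The sources used here do not give the age, sex or strain of the operated rats. Each group had 1 library, and whether it pooled the 3 animals is not stated. Replicate spread is therefore unknown, and the comparisons are of these libraries and not of the conditions.

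A circRNA is a closed loop left when splicing joins the end of an exon to the start of the same or an earlier exon, and it is counted by reads across that back-splice junction. On most messenger RNAs translation starts when eIF4F assembles on the cap: eIF4E binds the cap, eIF4A unwinds the leader, and an eIF4G protein holds them together and recruits the small ribosomal subunit through eIF3. Eif4g3 encodes eIF4GII, a paralog of the main scaffold eIF4GI, and Eif4e3 encodes an atypical member of the eIF4E family that binds the cap. The MNK kinases, which ERK and p38 activate, dock on eIF4G and phosphorylate eIF4E, and this step is studied in pain pathways. A circRNA count is not a measure of the linear messenger RNA or of the protein.

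The table held 113033 back-splice reads in sham and 78836 in BCP. Levels are given as CPM, each count scaled to the library's total of back-splice reads, so 3 reads, the floor used for a circRNA listed at 0, stand for 26.5 CPM in sham and 38.1 CPM in BCP. All intervals are 95%, exact binomial (Clopper-Pearson) for levels and conditional exact binomial for ratios. They cover counting error only, and without molecular identifiers reads may be copies of the same molecule. A circRNA with at least 10 reads over both libraries met the size rule if its ratio was at least 2-fold and the interval excluded 1. With 0 reads in 1 library and at least 10 in the other, a circRNA thus always met it. Of 5 epithelial markers, which the carcinoma cells could bring, 0 hosted a circRNA in either library. All 3 neuron markers did (17 sham and 25 BCP reads in sum, 150 and 317 CPM), as did 3 of 4 oligodendrocyte markers (11 and 45, 97.3 and 571 CPM). So did 1 of 4 astrocyte markers (5 and 3, 44.2 and 38.1 CPM) and 2 of 5 microglia and macrophage markers (13 and 43, 115 and 545 CPM). The part of cell makeup in the values below was not tested, and in bulk tissue fewer cells of a type and less RNA per cell cannot be told apart.

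Eif4g3 (chromosome 5, rn6, 156396700 to 156547794 over all its circRNAs) had a single circRNA that set its level in BCP. This circRNA, from 156396700 to 156416316, spans 19617 bp and had 0 reads in sham and 46 in BCP. Its level in BCP was 583.5 CPM (427 to 778), against 0 reads in sham. Set against the floor of 3 reads in sham (26.5 CPM) it was at least 22.0-fold higher in BCP, and the exact interval of the ratio, which is wider, began at 17.2. Of 2596 circRNAs listed in BCP alone, 5 had 46 reads or more, and their median was 3. Its gene field also held 5 family names of small RNAs, as did that of 1 other Eif4g3 circRNA. The circRNA from 156396700 to 156444470, which covers the same stretch and begins at the same position, carried the name Eif4g3 alone.

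**Figure D1:**
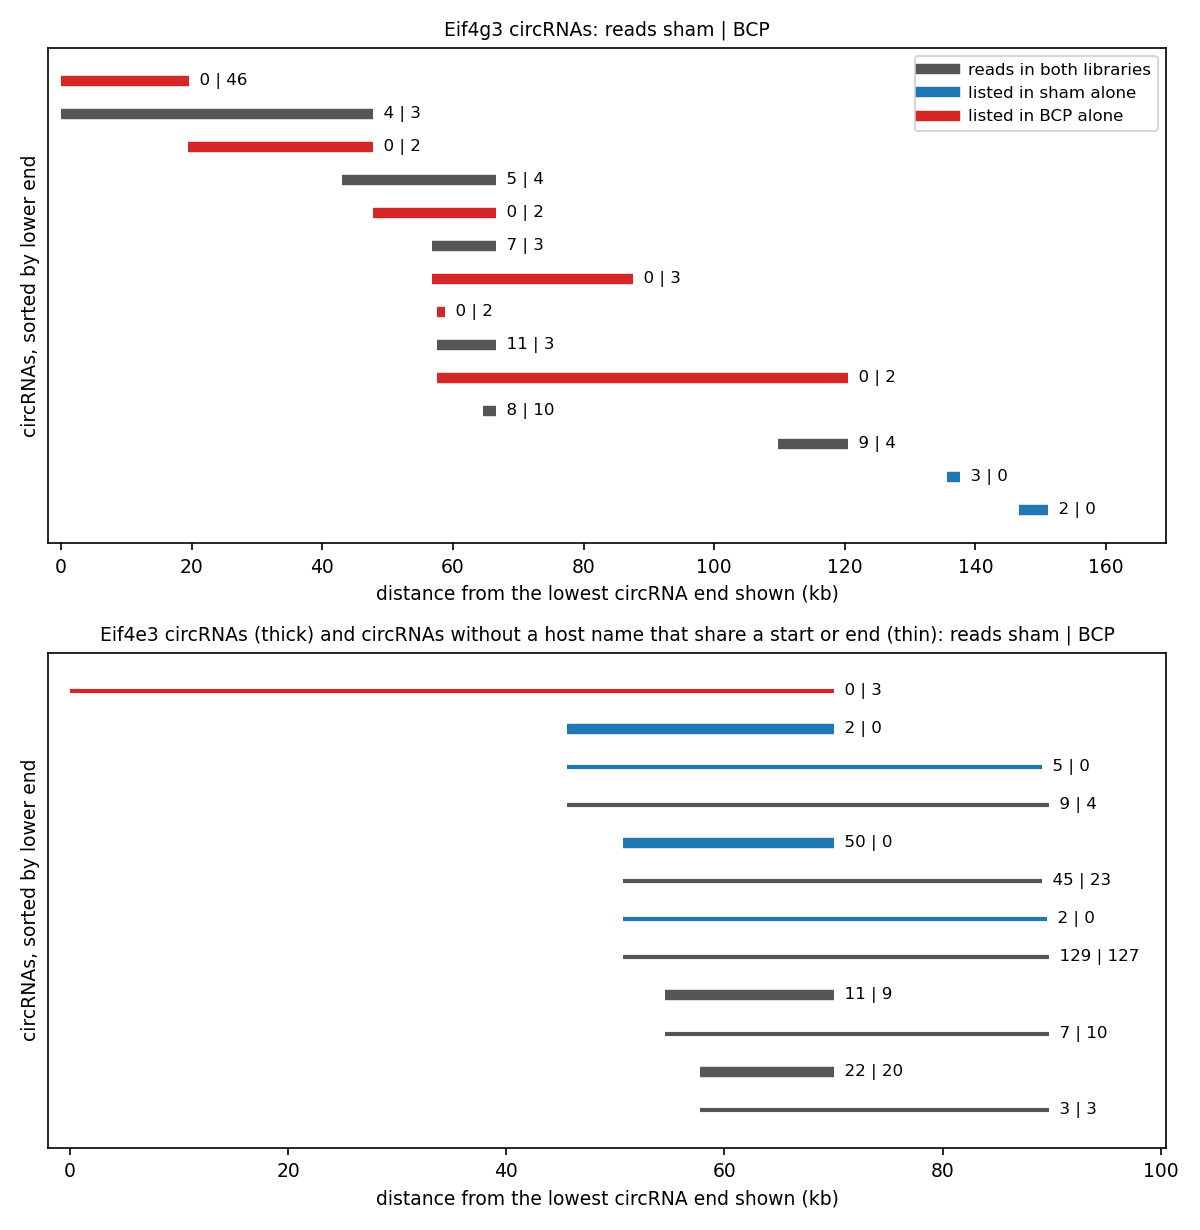
Each bar is a circRNA, drawn from its lower to its higher end in kb from the lowest end shown, with its reads in sham and BCP beside it. Colour gives the libraries that listed it, and thin bars in the lower panel have no host name. The 46 BCP reads of Eif4g3 and the 50 sham reads of Eif4e3 each sit on 1 bar, among bars with reads in both libraries.

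The lower end of the circRNA with 46 reads was in use in both libraries. The longer circRNA that begins there had 4 reads in sham and 3 in BCP, 35.4 and 38.1 CPM, levels that lie within each other's intervals. Its higher end, 156416316, ended no other Eif4g3 circRNA. Another Eif4g3 circRNA began 129 bp before that position, counting both ends, at 156416188, and ran to 156444470 with 0 and 2 reads. Reads that start at 156396700 therefore made up 8.16% of Eif4g3 reads in sham (4 of 49) and 58.3% in BCP (49 of 84).

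Of the 6 Eif4g3 circRNAs with reads in both libraries, 4 closed at the same position, 156463365. With another listed in BCP alone, this end closed 5 of the 14 circRNAs, and these together gave 31 sham and 22 BCP reads, a ratio of 1.02 (0.561 to 1.82). Summed over this end, the libraries thus differed by less than counting error. The circRNA from 156461278 to 156463365, the shortest of the 5 at 2088 bp, had 8 sham reads and 10 BCP reads (70.8 and 127 CPM). The one from 156454276 had 11 and 3 reads (97.3 and 38.1 CPM), the lowest ratio among Eif4g3 circRNAs with reads in both libraries, 0.391 (0.0701 to 1.48). The first has a ratio above 1 (1.79, 0.637 to 5.23) and the second a ratio below it, and each interval includes 1. The circRNAs that start at 156453511 and 156439764 had 7 and 3 reads and 5 and 4 reads, and the one from 156444438 had 0 and 2.

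Past this end the counts were thin. The circRNA from 156506448 to 156517254 gave 9 sham and 4 BCP reads, a ratio of 0.637 (0.143 to 2.28). The 2 circRNAs farthest along the gene, from 156532339 and 156543386, had 3 and 2 reads in sham and were listed at 0 in BCP. In the opposite direction, BCP alone listed circRNAs from 156453511 to 156484234 (3 reads), 156454276 to 156517254 (2 reads) and 156454276 to 156455447 (2 reads). These start before 156463365, and the last also closes before it. A count of 2 is the smallest above 0 in the table, so none of these shows that a circRNA was absent from the other library. The 14 circRNAs used 10 lower and 8 higher ends, with spans of 1172 to 62979 bp and a median of 14867 bp, against 9708 bp over the table.

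Eif4e3 (chromosome 4, rn6, 132070365 to 132094750) had a simpler layout in the circRNAs that carry its name. Its 4 circRNAs began at different positions and all closed at 132094750, so they are nested, with spans of 12255 to 24386 bp. Of 776 host genes with at least 4 circRNAs, 10 (1.29%) had a start or an end that all their circRNAs shared, Eif4e3 among them. This count leaves out circRNAs without a host name, and such circRNAs, described below, join each of the 4 Eif4e3 starts to other ends. The circRNA from 132075419 had 50 reads in sham and 0 in BCP. Its level in sham was 442 CPM (328 to 583). Set against the floor of 3 reads in BCP (38.1 CPM) it was at least 11.6-fold lower in BCP, and the exact interval of the ratio of BCP over sham, which is wider, ended at 0.110. Of 4224 circRNAs listed in sham alone, 14 had 50 reads or more, and their median was 3.

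The other Eif4e3 circRNAs were at like levels in the libraries. The shortest, from 132082496, had 22 sham reads and 20 BCP reads (195 and 254 CPM), a ratio of 1.303 (0.675 to 2.503). The next, from 132079305, had 11 and 9 reads (97.3 and 114 CPM), a ratio of 1.17 (0.4297 to 3.11). Between them, the shortest took 66.7% of their reads in sham (48.2 to 82.0) and 69.0% in BCP (49.2 to 84.7), so the change in this proportion was within counting error. The longest, from 132070365, had 2 reads in sham and 0 in BCP.

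**Figure D2:**
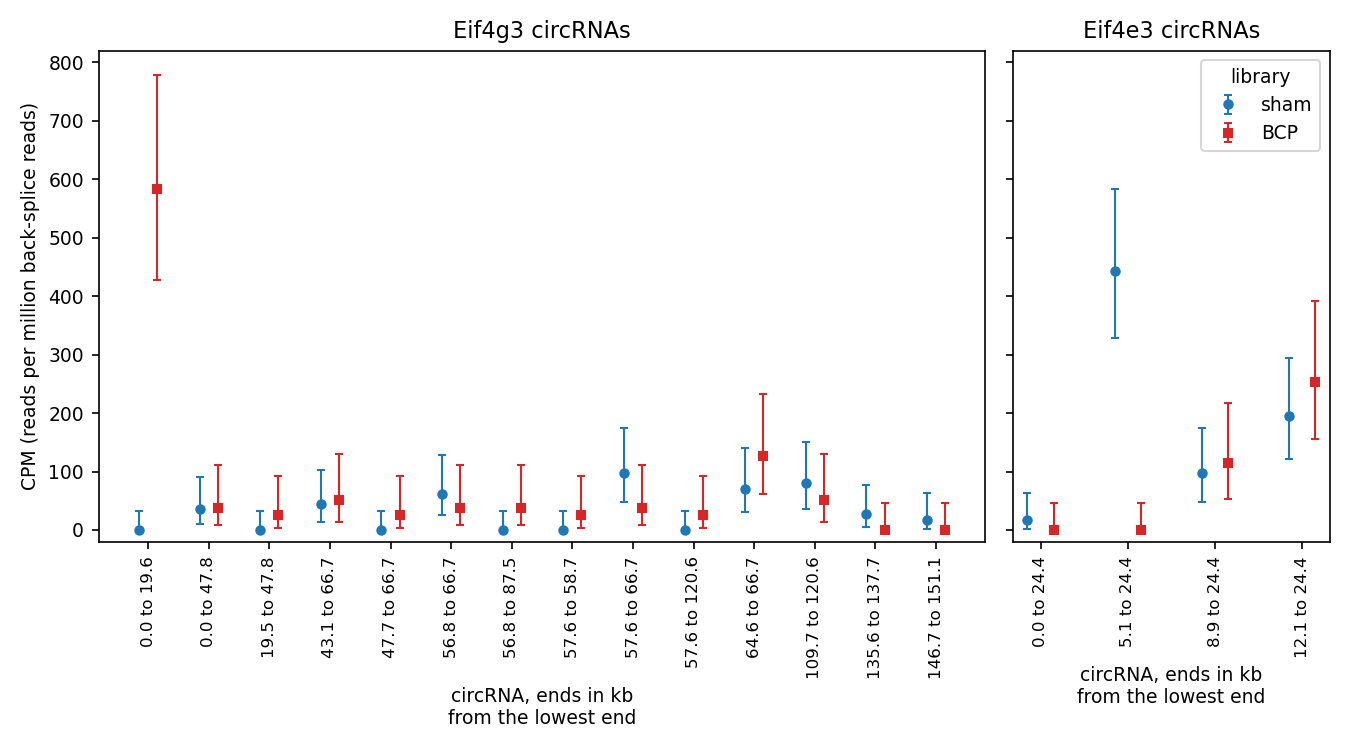
Points are the CPM of each circRNA of Eif4g3 (left) and Eif4e3 (right) in sham (circles) and BCP (squares), with exact 95% intervals. The circRNA at 583.5 CPM in BCP and the one at 442 CPM in sham, each at 0 in the other library, stand apart, and for the 8 circRNAs with reads in both libraries the intervals overlap.

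Of the 18 circRNAs, 8 had at least 10 reads (5 of Eif4g3 and 3 of Eif4e3), and the other 10 had 2 to 9 reads in all. The size rule was met by 1 as higher in BCP and by 1 as lower, the circRNAs with 46 and 50 reads in 1 library. Among all circRNAs listed, 7.82% of 3502 circRNAs met it as higher and 7.34% as lower, and since the members were chosen for this contrast nothing is read from their share. The other 6 met neither side, and all 6 had reads in both libraries.

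CircRNAs without a host name shared the back-splice sites of Eif4e3. At this locus the table lists 11 more circRNAs that overlap those of Eif4e3, and their gene fields held small RNA family names and a name that recurs over the chromosome, but not Eif4e3. Of these, 8 used a start or the end of an Eif4e3 circRNA. The most abundant of them, from 132075419 to 132114473, gave 129 sham and 127 BCP reads (1141 and 1611 CPM), a ratio of 1.41 (1.096 to 1.82) that did not meet the size rule. It thus had more reads than the 4 named Eif4e3 circRNAs together, and it begins where the circRNA listed in sham alone begins. A shorter one from the same start to 132113888 had 45 and 23 reads (398 and 292 CPM), a ratio of 0.733 (0.423 to 1.24).

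The start at 132075419 was therefore in use in both libraries. Joined to its 3 ends outside the named Eif4e3 circRNAs, it gave 176 sham and 150 BCP reads, a ratio of 1.22 (0.976 to 1.53), and with all 4 ends 226 and 150, which gives 0.952 (0.769 to 1.175). Of the joins of this start, the one to 132094750, with 50 reads in sham and 0 in BCP, met the size rule. That end itself was joined to other starts in BCP (29 reads with Eif4e3's name and 3 from 132024754). Around Eif4g3 there were 0 such overlapping circRNAs. Over the table, 172 of 1563 circRNAs without a host (11.0%) shared a start or an end with a circRNA that had 1 host, and 115 of 3865 host genes (2.98%) had such a partner. Whether these circRNAs come from Eif4e3 transcripts was not tested.

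The sums over each gene followed the circRNAs listed in 1 library. Eif4g3 had 49 reads in sham and 84 in BCP, 434 CPM (321 to 573) and 1066 CPM (850.0 to 1319). This ratio was 2.46 (1.71 to 3.57) and met the size rule, as did 8.82% of 2144 host gene sums in that direction. The 8 circRNAs listed in 1 library gave 10.2% of its reads in sham (5) and 67.9% in BCP (57). Without the circRNA of 46 reads the sums were 49 and 38, a ratio of 1.11 (0.708 to 1.73). With the 6 circRNAs that had reads in both libraries, the sums were 44 and 27 and the ratio was 0.880 (0.524 to 1.45), on the other side of 1.

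Eif4e3 went the opposite way. Its sum was 85 sham reads and 29 BCP reads, 752 CPM (601 to 930) and 368 CPM (246 to 528), 2.04-fold lower in BCP (1.33 to 3.23). That sum met the size rule too, as did 8.49% of host gene sums in that direction. Its 2 circRNAs listed in 1 library gave 61.2% of its reads in sham and 0 in BCP. From the 2 circRNAs with reads in both libraries, the sums were 33 and 29 and the ratio was 1.26 (0.738 to 2.14). Adding the 8 circRNAs without a host name that share its back-splice sites gave 285 and 199 reads, a ratio of 1.001 (0.831 to 1.204). Of these 12 circRNAs, the 7 with reads in both libraries gave 226 and 196 reads. That ratio was 1.24 (1.02 to 1.51), which did not meet the size rule. Over both genes, the 18 circRNAs gave 134 sham and 113 BCP reads, a ratio of 1.21 (0.933 to 1.57), and the 8 with reads in both libraries had 77 and 56, a ratio of 1.04 (0.726 to 1.49).

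**Figure D3:**
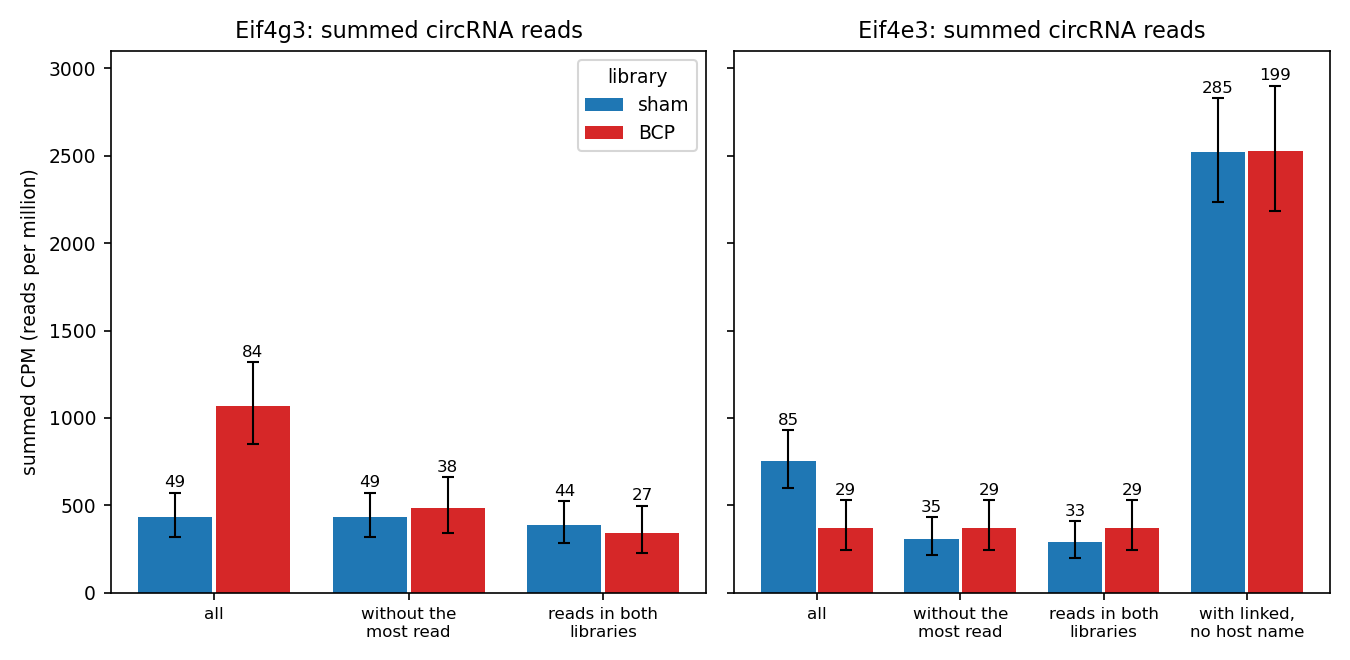
Bars are summed CPM of the circRNAs of Eif4g3 (left) and Eif4e3 (right) in sham and BCP, with exact 95% intervals and the read counts above them. The gap between the bars is wide for all circRNAs (49 and 84 reads, 85 and 29 reads), and the intervals overlap once the most read circRNA of each gene is left out.

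Such dependence was set against other host genes. Among 544 host genes with at least 3 circRNAs and 50 reads, with no upper limit on reads, the median share of reads in circRNAs listed in 1 library was 9.01%. This share was 46.6% in Eif4g3 and 45.6% in Eif4e3, and 24 and 26 of the 544 genes, the gene itself counted, had a share at least as high. Both genes were chosen in part for single circRNAs that differed between the libraries. Nothing is therefore read from their place here or among the changes of sign below. The circRNA with most reads held 34.6% of Eif4g3 reads and 43.9% of Eif4e3 reads, both under the median of 54.8%. Of the 188 host genes with at least 3 circRNAs that met the size rule, 26 (13.8%) met it in the same direction from circRNAs with reads in both libraries. For 83 the remaining sum had enough reads and did not meet it, for 30 it had under 10 reads, and 49 had no circRNA left. Of the 109 with enough reads left, the log2 ratio changed sign in 20 (18.3%), which include Eif4g3 and Eif4e3. Over the table, 6.71% of 1744 host gene sums of such circRNAs met the rule in either direction. All 1744 had at least 10 reads, with any number of circRNAs, so this percentage and the 13.8% have unlike bases.

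**Figure D4:**
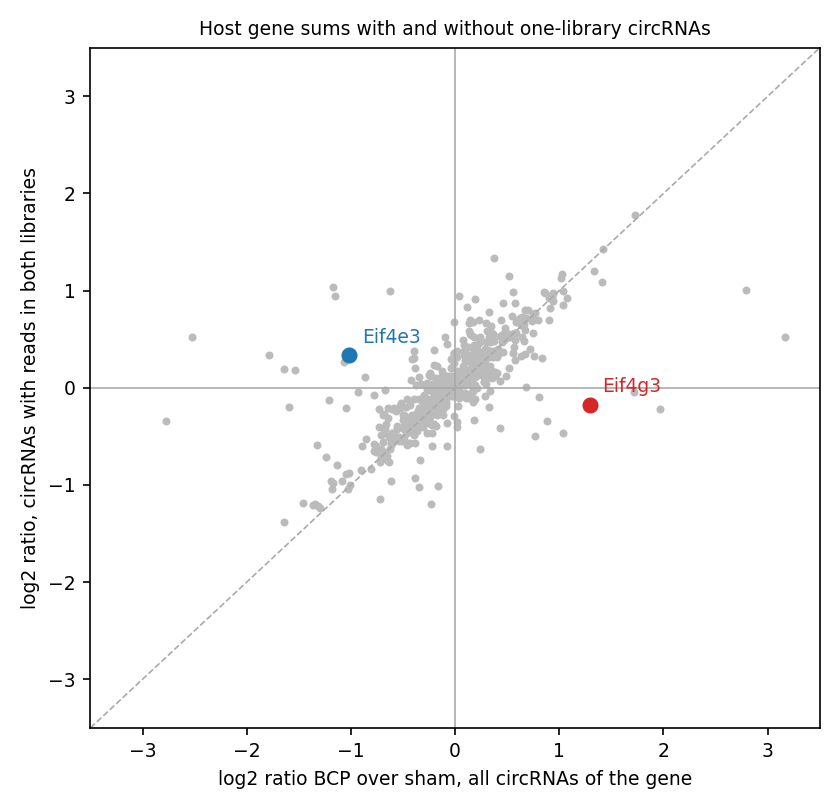
Each point is 1 of 542 host genes with at least 3 circRNAs, 50 reads, and 10 reads in circRNAs listed in both libraries. Both axes are log2 ratios (BCP over sham, 0.5 reads added to each count), and the dashed line marks equal values. Eif4g3 and Eif4e3 lie on opposite sides of 0 on each axis, away from the dashed line.

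Other genes of cap-dependent initiation were read from 3 lists of 95 genes besides these, of which 36 hosted a circRNA. Of the 14 other genes of the eIF4E, eIF4G, eIF4A, eIF4B, eIF4H and 4E-binding families looked for, 12 had 0 circRNAs, the main cap-binding protein gene Eif4e and the main scaffold gene Eif4g1 among them. The helicase gene Eif4a2 had 0 reads in sham and 3 in BCP, and Eif4enif1, whose product carries eIF4E into the nucleus, had 2 and 5. Eif4g3 and Eif4e3 were thus the 2 genes of this family with more than 10 back-splice reads here. Among the partners, Gigyf2, whose product acts with the cap-binding protein 4EHP, hosted the circRNA with most reads (6836 and 4806, a ratio of 1.008, 0.971 to 1.046).

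Over the 3 lists, 22 circRNAs had at least 10 reads, of which 1 met the size rule as higher in BCP, 1 as lower and 20 as neither. Over all 3502 circRNAs with at least 10 reads, 7.82% met it as higher and 7.34% as lower. The median log2 ratio was 0.02 both in the lists and over all 3502. The lower one, of Gigyf1 (chromosome 12, 22238126 to 22238269), had 16 reads in sham and 0 in BCP. The higher one, of Pdcd4, whose product inhibits eIF4A (chromosome 1, 274640012 to 274642449), had 0 and 10 reads. Both were listed in 1 library alone, like the Eif4g3 and Eif4e3 circRNAs that met the rule. A circRNA with 0 reads in 1 library and at least 10 in the other always meets it, so nothing is read from this likeness. Over the table, 531 circRNAs met it, 273 of them with reads in both libraries. The most abundant circRNA among the other initiation factors, of the helicase gene Dhx29, had 26 and 28 reads (1.54, 0.873 to 2.74), and among the signalling genes, of the S6 kinase gene Rps6kb1, 74 and 69 (1.34, 0.949 to 1.88). Of 18 host gene sums in the lists with at least 10 reads, 1 met the rule as higher, 1 as lower and 16 as neither, where 8.82% and 8.49% did so over all host genes. The lower one, of the eIF2α kinase gene Eif2ak1, had 23 and 2 reads, and the higher one, of Pdcd4, had 11 and 19. Without their circRNAs listed in 1 library these were 9 and 2 (0.319, 0.0335 to 1.54) and 11 and 9 (1.17, 0.4297 to 3.11), and neither met the rule. Of the MNK kinase genes, Mknk2 had 2 and 2 reads and Mknk1 had no circRNA listed.

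The host genes closest to Eif4g3 in the log2 ratio of summed CPM (1.29) were Arhgap10 (67 and 125 reads, 1.41), Mef2a (69 and 99, 1.04) and Mvb12b (46 and 66, 1.04), out of 363 genes with at least 3 circRNAs and reads within 2-fold of its own. In these, circRNAs listed in 1 library gave 15.6%, 1.79% and 23.2% of reads, lower shares than in Eif4g3. For Eif4e3 (-1.02) they were Aff4 (53 and 18 reads, -1.01), Ephb1 (97 and 33, -1.02) and Lrba (77 and 26, -1.03), out of 400. There the shares were 11.3%, 6.92% and 14.6%, again lower than in Eif4e3. Since Eif4g3 and Eif4e3 were chosen in part for single circRNAs that differed between the libraries, nothing is read from these differences in share. With circRNAs in both libraries alone, Aff4 had 47 and 16 reads, Ephb1 88 and 33 and Lrba 66 and 22, so their direction stayed as it was. It also stayed for Arhgap10 (65 and 97 reads, log2 ratio 1.09), Mef2a (69 and 96, 0.99) and Mvb12b (38 and 48, 0.85). The likeness of all these genes to Eif4g3 or Eif4e3 is the rule they were picked by, and it rests on 2 libraries.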

How the data were processed

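The counts the authors deposited are back-splice reads per circRNA for 1 BCP and 1 sham library of RNase R-treated spinal cord RNA (16 units, 15 min, per the labels' protocols). The second pair of columns the authors deposited is headed TPM but holds CPM, equal to the count over the column total to within 0.001 CPM, with 0 written as 0.001. Per the submitters' processing notes, CASAVA 1.8, BWA and the rn6 build were used. The sources used here do not give the circRNA caller or its read minimum, so a thinly covered circRNA may be listed at 0, above all in BCP with its lower depth. Positions were taken from the table, which does not say whether they count from 0 or 1. Spans count both ends. The labels name spinal cord as the tissue and the injected line as the source, and the tissue label was followed.

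Family names of small RNAs and 65 names covering over 3 Mb of a chromosome were dropped, and a circRNA with 1 name left was given that host. Both members matched a symbol in the RefSeq table of GRCr8, used for names alone. Counts were scaled to library totals. The 2-fold limit was applied to the log2 ratio with a pseudocount of 0.5 reads. Printed ratios carry no pseudocount, nor do the log2 ratios of the Eif4g3 and Eif4e3 sums in the closing section. The list medians and the log2 ratios of host genes set beside Eif4g3 and Eif4e3 carry it. With 1 library per group no test across replicates was possible. A fold against 0 reads was computed against 3 reads in that library. TMM scaling (edgeR 4.0.16), median-of-ratios scaling (DESeq2 1.42.0), other read minimums and pseudocounts, and subsets of circRNAs were alternatives. The size rule and the intervals of ratios were tested on simulated counts that carried counting error alone. The naming of hosts and the gene sums were not part of that check. Named were all members, circRNAs of the 3 lists that met the size rule or had most reads, and the 3 host genes of closest ratio. Host sums in the lists, Mknk1 and Mknk2, and circRNAs that share back-splice sites with Eif4e3 were named after their values were seen. Members and lists were chosen with earlier results of these data known. The table gives no sequences, and exons were not used here.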

Additional observations from a re-analysis of the deposited data

How the results depend on the processing

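Median-of-ratios and TMM scaling moved all log2 ratios by -0.10 and -0.12, and pseudocounts of 1 and 0.1 reads were tried too. Under these 4 settings none of the 18 circRNAs changed sign or its side of the size rule, and both gene sums kept theirs under the 2 scalings (1.19 and 1.18 for Eif4g3, -1.14 and -1.15 for Eif4e3, on the log2 scale). The choice of circRNAs mattered. For Eif4g3 the log2 ratio of the sum, 1.30 with all circRNAs, was -0.18 with circRNAs listed in both libraries, 0.08 (0.075) with those of 1 name in the gene field and 0.15 without the most read circRNA, which is also the most read of those in 1 library. For Eif4e3 it was -1.03, against 0.33 with circRNAs listed in both libraries, 0.25 without the most read circRNA, which is again in 1 library, and 0.00 (0.0016) with the circRNAs without a host name that share its sites, an alternative chosen after seeing the data. None of these 6 sums met the size rule, and fewer circRNAs or reads enter them by construction, or more in the last. With circRNAs of 1 name in the gene field, the Eif4e3 log2 ratio stayed at -1.03 and met the rule, since all 4 of its circRNAs enter. Over the table, 531 circRNAs met the rule, against 1248 with a minimum of 5 reads, 251 with 20 and 273 with reads in both libraries. The balance of higher to lower, 274 to 257, turned to 231 against 304 under median-of-ratios and 228 against 308 under TMM scaling. For host genes 371 became 576, 221 and 117, and for the 3 lists of initiation genes 2 became 9, 0 and 0. No paired analysis was possible because each group had 1 library. At these depths a ratio near 2-fold could not be told from 1 for the Eif4g3 circRNAs with reads in both libraries, whose counts were 3 to 11 per library.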
